A study of Danio rerio with 18 samples.

Results

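The neutrophil arm of a translating ribosome affinity purification (TRAP) experiment in zebrafish larvae is described here, in which neutrophils were profiled in larvae whose keratinocytes expressed oncogenic HRasG12V. Its members are the 6 libraries labelled neutrophil among the 18 libraries of the series, 3 with HRasG12V and 3 with HRas control. The other 12 libraries profiled macrophages and keratinocytes by TRAP. Macrophage libraries came from a transgenic line, Tg(mpeg1:EGFP-L10a). For keratinocyte libraries, a plasmid for the tagged ribosomal subunit was injected into wild-type larvae together with the HRas construct. The question was which transcripts differ in neutrophils of larvae that carry preneoplastic skin cells.

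The HRasG12V larvae were Tg(LyzC:EGFP-L10a) zebrafish injected before the first cell division with pTol2-krt4-RFP-HRasG12V, and the genotype in their labels is mutant (HRas G12V). The HRas control larvae were of the same transgenic line, were injected with pTol2-krt4-RFP-HRas and are labelled wild type, so that both groups carried an RFP-HRas construct in keratinocytes. All larvae were collected at 3 dpf, with about 50 larvae pooled per library and 1 library per group in each of 3 batches collected on separate days. Larvae were kept in N-phenylthiourea, which blocks pigment formation. The krt4 promoter drives the construct in keratinocytes, and injection makes its expression mosaic. The EGFP-tagged ribosomal subunit L10a was driven in neutrophils by the LyzC promoter. The HRas construct was aimed at keratinocytes by its promoter, and whether any neutrophils carried or expressed it was not tested.

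In TRAP, tagged ribosomes are pulled out of a lysate of whole larvae together with the transcripts they are translating, so that the RNA recovered is enriched for, but not limited to, the cells that carry the tag. Neutrophils are phagocytes that crawl to damaged or transformed tissue, release granule enzymes such as lysozyme, and make superoxide with the NADPH oxidase complex. Thioredoxin is a small protein that reduces oxidised proteins and buffers the reactive oxygen species that this complex makes. Cone and rod photoreceptors detect light with opsins, which act through the G protein transducin on a cGMP phosphodiesterase, and these genes are used in the retina and pineal gland and not in blood cells.

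The expected counts of the 6 libraries summed to between 7118431 and 12158932 in HRasG12V larvae and between 6206924 and 14781123 in HRas control larvae. The 10 most abundant features took 80.5 to 89.3% of these counts in HRasG12V larvae and 86.4 to 93.5% in HRas control larvae, which left 909538 to 2112668 and 400705 to 1569328 counts for all other genes. The lowest of these was HRas control replicate 3. Outside the neutrophil arm, macrophage HRas control replicate 3 held 16990 counts in all, and calls are given with and without it because all 18 libraries shared 1 fit. In that library 1029 genes had counts above 0. Ranges given for macrophage libraries with HRas control include it, so a lower end of 0.00 there cannot be read as absence of a gene.

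The cell type label was checked with lyz, which encodes lysozyme. Its level was 24.9 to 112 TPM (transcripts-per-million units, a level per transcript length) in neutrophil libraries of HRasG12V larvae and 1.46 to 24.0 TPM in those of HRas control larvae. In keratinocyte libraries it was 0.47 to 1.91 TPM with HRasG12V and 0.00 to 0.31 TPM with HRas control, and in macrophage libraries 0.00 to 9.97 and 0.00 to 1.76 TPM. The lyz level of 1.46 TPM in the lowest neutrophil library, HRas control replicate 3, lay inside the range of the macrophage libraries. Transcripts of other tissues were present in the neutrophil libraries as well. The skin keratin krt4 was at 184 to 618 TPM in HRasG12V and 91.3 to 229 TPM in HRas control neutrophil libraries, which overlapped its range of 258 to 1040 TPM in HRasG12V but not that of 326 to 545 TPM in HRas control keratinocyte libraries. The muscle actin actc1b was at 45.2 to 124 TPM in HRasG12V and 9.84 to 89.6 TPM in HRas control neutrophil libraries. The macrophage regulator IRF8 was at or near 0, with 0.00 to 0.05 TPM in HRasG12V and 0.00 to 0.03 TPM in HRas control neutrophil libraries. Other macrophage markers were low but present. In HRasG12V and HRas control neutrophil libraries csf1rb was at 0.16 to 0.55 and 0.19 to 0.71 TPM. There spi1a was at 0.47 to 0.70 and 0.19 to 0.34 TPM, and csf1ra at 0.03 to 0.41 and 0.22 to 0.34 TPM. The csf1rb levels overlapped its range of 0.00 to 0.84 TPM in macrophage libraries with HRas control.

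In neutrophils, 42 of 14685 genes tested (0.286%) were called, at a Benjamini-Hochberg adjusted p of at most 0.05, with the quasi-likelihood test of edgeR. Of these, 13 were higher in HRasG12V larvae (0.0885% of genes tested) and 29 were lower (0.197%). Of the 13 genes that rose, 7 belong to lists of leukocyte genes, 1 of them (lgals9l1) to the macrophage list, with log2 fold changes of 1.81 to 5.80. Of the 29 genes that fell, 15 belong to lists of retina and neuron genes, with log2 fold changes of −5.61 to −1.72. The ends at 5.80 (lgals9l1) and −5.61 (NXNL1) are uncertain, as all 3 libraries of 1 group held 3 counts or fewer. A bound is given below for each of these genes. A further 8 of the genes that fell rested on the single library HRas control replicate 2 and are described apart. Because each library was pulled out of a lysate of pooled whole larvae, fewer cells of a type and less RNA per cell cannot be told apart in any of these results. How much tagged RNA each pull-down recovered, and how pure it was, was not tested either.

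The number of calls depended on the fit. Without macrophage HRas control replicate 3, 24 of 16011 genes passed, 8 higher (0.05%) and 16 lower (0.0999%), all of them among the 42. A fit to the 6 neutrophil libraries alone called 1 gene, EEF1A1 (ENSDARG00000069951), as lower and 0 as higher. DESeq2 called 79 genes, of which 29 were among the 42, and 523 genes (3.56%) were higher and 473 (3.22%) lower at an unadjusted p under 0.05 in the edgeR fit.

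The 42 genes were then read batch by batch, as the log2 ratio of the HRasG12V library over the HRas control library collected with it. All 13 genes called higher had a ratio above 0 in all 3 batches, against 16.7% of all genes tested, and 12 of them had a ratio of at least 1 each time, against 0.838%. Among the 29 genes called lower, 23 had a ratio below 0 in all 3 batches, against 13.7%, and 17 had a ratio of −1 or less each time, against 0.47%. The 3 HRasG12V libraries lay apart from the 3 HRas control libraries in 12 genes called higher and 23 called lower, where 7.45% and 5.6% of all genes did so. These counts describe the same contrast that called the genes.

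**Figure D1:**
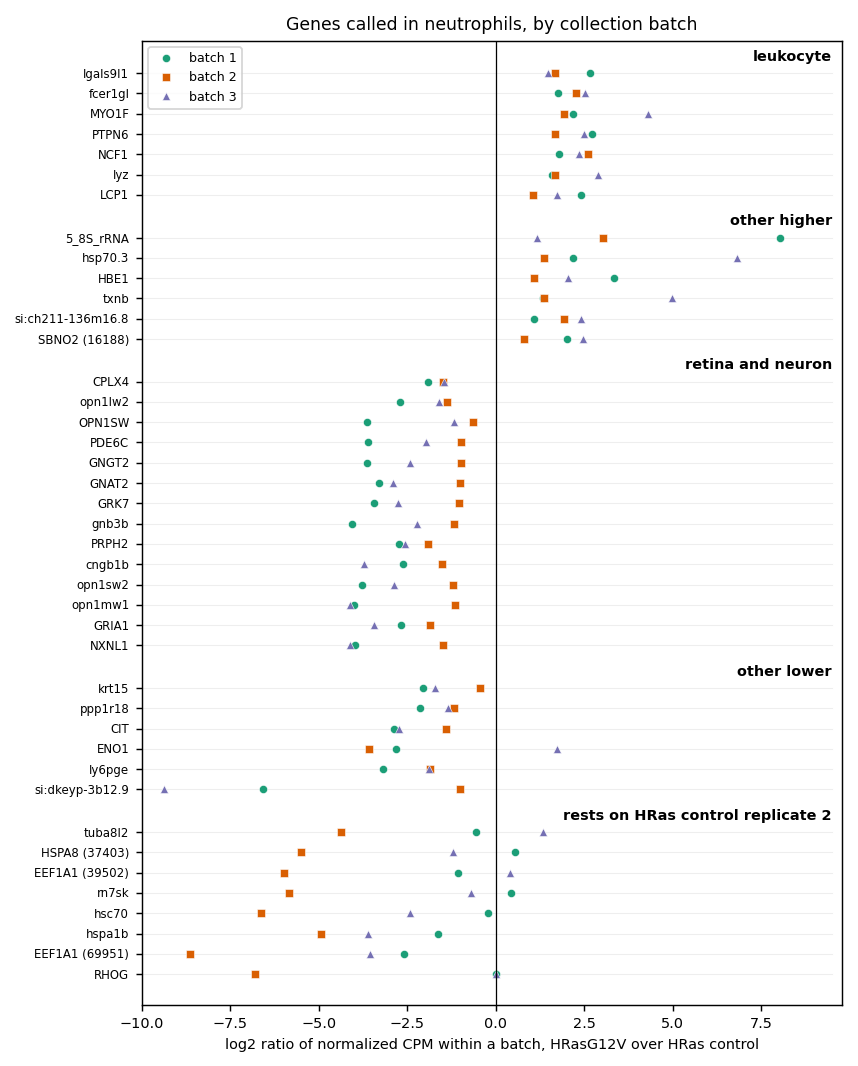
Each row is a gene called in neutrophils, 41 of the 42, and each point the log2 ratio of normalized CPM of HRasG12V over HRas control within batch 1 (circle), batch 2 (square) or batch 3 (triangle). Points of the leukocyte genes all lie right of 0 and those of the retina and neuron genes all left of it, whereas in the bottom group batch 2 alone carries the difference or most of it.

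The 7 leukocyte genes were lyz, NCF1, LCP1, MYO1F, PTPN6, fcer1gl and lgals9l1. Values are normalized CPM (counts-per-million units after scaling by TMM factors), given for replicates 1, 2 and 3 in turn. lyz had 50.6, 51.6 and 19.0 CPM in HRasG12V larvae, against 16.7, 16.0 and 2.34 CPM in HRas control larvae. The lowest HRasG12V library was thus above the highest HRas control library, by a narrow margin, and replicate 3 was low in each group. The log2 fold change was 1.93 ± 0.40 (SE, n = 3 each; edgeR adjusted p = 0.00925). An exact two-sided permutation test of 3 libraries against 3 gave p = 0.1, the smallest it can give. The lyz call was lost without HRasG12V replicate 1, HRasG12V replicate 3 or HRas control replicate 3, and with DESeq2, whose adjusted p was 0.46.

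NCF1, the p47phox subunit that assembles the NADPH oxidase, had 7.39, 5.17 and 3.99 CPM in HRasG12V larvae, against 1.97, 0.653 and 0.586 CPM in HRas control larvae. All 3 HRasG12V values exceeded all 3 HRas control values. It rose by a log2 fold change of 2.38 ± 0.52 (SE, n = 3 each; edgeR adjusted p = 0.0164). Without HRas control replicate 2 the fold change was 1.85 and the call was lost (adjusted p = 0.197).

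LCP1 and MYO1F act on the actin cortex of leukocytes, LCP1 (L-plastin) as an actin bundler and MYO1F as a class I myosin. LCP1 had 22.1, 18.5 and 16.2 CPM in HRasG12V larvae, against 3.93, 8.74 and 4.69 CPM in HRas control larvae, and MYO1F had 5.57, 5.05 and 4.40 CPM, against 1.04, 1.14 and 0.00 CPM. In each gene the HRasG12V libraries were close together and lay above every HRas control library. LCP1 rose by 1.81 ± 0.37 and MYO1F by 2.80 ± 0.53 on the log2 scale (SE, n = 3 each; edgeR adjusted p = 0.00741 and 0.00267). MYO1F was the only gene called higher that stayed called whichever of the 6 neutrophil libraries was left out.

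PTPN6, the tyrosine phosphatase SHP-1 that restrains leukocyte activation, had 5.09, 5.22 and 2.75 CPM in HRasG12V larvae, against 0.578, 1.47 and 0.293 CPM in HRas control larvae. fcer1gl, a relative of the Fc receptor gamma chain that couples receptors to tyrosine kinases, had 1.34, 2.47 and 1.1 CPM, against 0.231, 0.327 and 0.00 CPM. The groups did not overlap in either gene, at levels of a few CPM. The log2 fold changes were 2.42 ± 0.55 and 2.91 ± 0.67 (SE, n = 3 each; edgeR adjusted p = 0.0212 and 0.0234). The call of fcer1gl was lost without HRas control replicate 2 (adjusted p = 0.211), that of PTPN6 was not (0.0257).

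SBNO2 (ENSDARG00000016188), a transcriptional coregulator that acts downstream of IL10 and STAT3 in mammals, had 12.4, 10.8 and 14.0 CPM in HRasG12V larvae, against 2.89, 6.13 and 2.34 CPM in HRas control larvae. All HRasG12V values lay above those of HRas control, with a log2 fold change of 1.63 ± 0.36 (SE, n = 3 each; edgeR adjusted p = 0.0182). The symbol is shared with ENSDARG00000098801, which was at 13.6, 15.7 and 13.6 CPM in HRasG12V larvae and 13.1, 14.8 and 12.9 CPM in HRas control larvae, and reads could be split between such copies. SBNO2 is in the IL6-Jak-Stat3 list and in none of the leukocyte lists. In keratinocyte libraries ENSDARG00000016188 was at 18.8 to 27.9 CPM with HRasG12V and 8.98 to 12.8 CPM with HRas control, above the neutrophil libraries of the same group, and its fold change there was 1.06 (adjusted p = 0.302). The part of keratinocyte RNA in the SBNO2 result was not tested. lgals9l1, a galectin, was counted 13, 9 and 3 times in HRasG12V larvae and 0 times in each HRas control library. Against a floor of 3 counts per library it was at least 1.47-fold higher, and its call (edgeR adjusted p = 0.0333) was lost when any 1 of 4 libraries was left out.

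**Figure D2:**
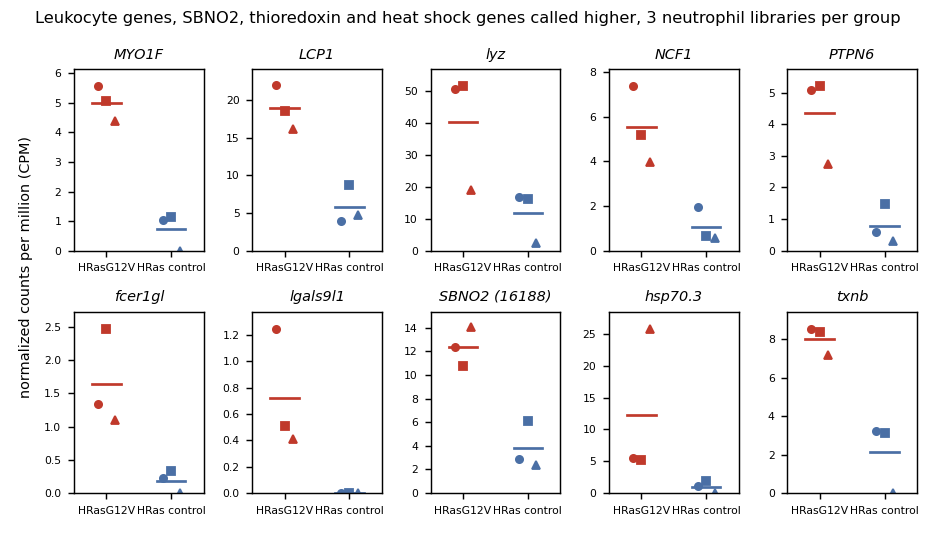
Normalized CPM of the 7 leukocyte genes called higher and of SBNO2, hsp70.3 and txnb in the 3 HRasG12V (left, red) and 3 HRas control (right, blue) neutrophil libraries, with circle, square and triangle for batches 1, 2 and 3 and a bar at the mean. In all 10 panels the red points lie above the blue ones, and for lyz the batch 3 libraries are the lowest of each group.

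Single libraries decided most of the calls of the leukocyte genes and SBNO2, although no sign changed. Without HRasG12V replicate 1, lyz, NCF1, LCP1, SBNO2 (ENSDARG00000016188), PTPN6, fcer1gl and lgals9l1 were lost, and without HRasG12V replicate 3 the same genes but PTPN6. Without HRas control replicate 1, LCP1, SBNO2, PTPN6, fcer1gl and lgals9l1 were lost, fcer1gl also without HRasG12V replicate 2, and SBNO2 also without HRas control replicate 3. Over these fits the log2 fold change stayed between 1.68 and 2.27 for lyz, 1.54 and 2.15 for LCP1, 1.38 and 2.29 for SBNO2, 1.85 and 3.27 for NCF1 and 2.2 and 3.0 for PTPN6, with highest edgeR adjusted p of 0.103, 0.136, 0.232, 0.207 and 0.172. Without macrophage HRas control replicate 3, PTPN6 (adjusted p = 0.0624) and lgals9l1 (0.103) were not called. DESeq2 called 4 of the 7 leukocyte genes, and not lyz, PTPN6 (adjusted p = 0.122) or lgals9l1 (0.0576). Without the replicate block, lyz, LCP1, PTPN6, fcer1gl and lgals9l1 were not called (edgeR adjusted p = 0.179, 0.0626, 0.0819, 0.084 and 0.0594).

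Several of the 7 leukocyte genes are also used by macrophages, and all but lyz reached their highest level in a macrophage library when those were set beside the neutrophil libraries. LCP1 was at 27.4 to 66.9 CPM in macrophage libraries with HRasG12V and at 0.00 to 55.8 CPM in those with HRas control, and PTPN6 was at 9.95 to 27.3 and 0.00 to 16.4 CPM. fcer1gl was at 7.40 to 27.1 and 0.00 to 13.2 CPM there. Macrophage transcripts were therefore followed in the neutrophil libraries with a list of 22 macrophage genes, of which 14 could be tested. Of these, 1 (lgals9l1) rose, 9 had a fold change above 0 and 5 below 0. The median log2 fold change was 0.54 against 0.02 over all genes tested. It was 0.29 with 6 genes that were at the floor in a group set to their bound. Over all genes tested, 0.0885% were called higher, 51.7% had a fold change above 0 and 16.7% were higher in all 3 batches. These shares are the background for the list counts that follow. The macrophage list summed to 22.4, 23.0 and 30.7 CPM in HRasG12V and 17.6, 19.6 and 21.4 CPM in HRas control neutrophil libraries. The macrophage growth factor receptors csf1ra and csf1rb had fold changes of −0.99 and −0.62 that did not pass the test (edgeR adjusted p = 0.85 and 0.88). IRF8 and spi1a had −0.15 and 0.48. The macrophage genes shown in the paper also include ncf1, cyba, spi1b and mfap4, which are outside this list. NCF1, cyba, SPI1 and MFAP4 (ENSDARG00000090783) had fold changes of 2.38, 5.68, 1.43 and 2.53, and of these NCF1 alone passed the test. cyba was at 0.00 CPM in every HRas control neutrophil library, so its fold change is uncertain. The part of macrophage RNA in the leukocyte result was not tested beyond these values.

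A list of neutrophil granule and effector genes had 16 members tested. Of these, lyz rose, 15 had a log2 fold change above 0 (51.7% of all genes tested), and 11 were higher in all 3 batches (16.7%). The list's median was 1.14, and its sum was 135, 113 and 72.6 CPM in HRasG12V larvae, against 59.0, 48.8 and 22.3 CPM in HRas control larvae. The next most abundant members were the transcription factors cebp1, with a fold change of 0.92 (edgeR adjusted p = 0.60), and CEBPB, with 1.14 (adjusted p = 0.31). Neither passed the test. MMP9, a gelatinase of neutrophil granules that was singled out after its values were seen, had a fold change of 3.01 that just missed the threshold (adjusted p = 0.052) and was called without HRas control replicate 2 (3.64, adjusted p = 0.025).

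Among 17 pan-leukocyte genes tested, PTPN6 and fcer1gl rose. All 17 had a fold change above 0, against 51.7% of all genes tested. In all 3 batches 13 were higher, against 16.7%. The median was 1.59, or 1.01 with 5 genes that were at the floor in a group set to their bound. The list summed to 38.8, 44.2 and 26.1 CPM in HRasG12V larvae, against 12, 16.3 and 10.8 CPM in HRas control larvae. The abundant members hcls1, an actin regulator of blood cells, and SPI1, the myeloid transcription factor PU.1, had fold changes of 1.05 and 1.43 that did not pass the test (edgeR adjusted p = 0.31 and 0.22).

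All 6 genes of the NADPH oxidase list were tested and had a fold change above 0, with a median of 1.17 (0.91 with 1 gene at its bound), and NCF1 alone rose. rac2, the GTPase that activates the complex, had 1.1 (edgeR adjusted p = 0.66) and cybb, the catalytic subunit, 0.73 (adjusted p = 0.95). Among 24 genes of leukocyte actin and motility, LCP1 and MYO1F rose, DESeq2 also called CORO1A higher (DESeq2 adjusted p = 0.0485), and 22 had a fold change above 0, with a median of 0.63. The cytoskeletal genes actb2, actb1 and MYH9 (ENSDARG00000001014), which are used in all cells, had fold changes of 0.17, 0.29 and 0.35.

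Thioredoxin was measured as txnb (ENSDARG00000044125). It had 8.54, 8.37 and 7.15 CPM in HRasG12V larvae, from 89, 149 and 52 counts, against 3.24, 3.1 and 0.00 CPM in HRas control larvae, from 28, 38 and 0 counts. The HRasG12V libraries were close together and above all HRas control libraries, and the absence of counts in HRas control replicate 3 fell in the library with the fewest counts outside its 10 most abundant features. txnb rose by 1.92 ± 0.43 on the log2 scale (SE, n = 3 each; edgeR adjusted p = 0.0199), and an exact two-sided permutation test gave its smallest p of 0.1. The call held without HRas control replicate 2 (2.22, adjusted p = 0.0254) and was lost without HRas control replicate 1, HRas control replicate 3 or HRasG12V replicate 3, and without the replicate block (adjusted p = 0.133). In keratinocyte libraries txnb was at 16.2 to 36.8 CPM with HRasG12V and 3.12 to 6.73 CPM with HRas control. The part of keratinocyte RNA in the txnb result was not tested. The other cytosolic thioredoxin gene, named TXN in the gene table (ENSDARG00000031435), had a fold change of 0.14 (adjusted p = 0.99).

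Of 27 antioxidant genes tested, txnb rose by edgeR's test, and DESeq2 called txnb and the glutathione transferase gstp1.2 higher (DESeq2 adjusted p = 0.00099 and 0.0182). Of the list, 18 had a fold change above 0 (51.7% of all genes tested) and 6 were higher in all 3 batches (16.7%). The median was 0.38. The abundant members fth1a (ferritin heavy chain), GPX4 (glutathione peroxidase) and TXNRD3 (thioredoxin reductase) had fold changes of −0.67, −0.38 and 0.44, none of which passed the test. fth1a was 34.2 CPM in HRas control replicate 2 and 9.6 to 15.8 CPM in the other 5 neutrophil libraries.

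Few genes of inflammatory signalling passed the test. Of 20 IL6-Jak-Stat3 genes tested, SBNO2 (ENSDARG00000016188) rose by edgeR's test, and DESeq2 also called SOCS3 (ENSDARG00000026611) higher (DESeq2 adjusted p = 0.0468). In this list 15 had a fold change above 0, against 51.7% of all genes tested, and the median was 0.23. The kinase JAK1 and the survival gene mcl1b had fold changes of 0.18 and 0.38. Of 26 TNF and NF-kB genes, 0 were called by edgeR's quasi-likelihood test or by DESeq2, and 3 were higher at an unadjusted p under 0.05. Their median was 0.33, and BIRC2, ikbkg and KLF6 had fold changes of 0.32, −0.44 and 0.43.

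The cytokine transcripts that the study followed by qPCR were scarce. il1b was counted 17, 11 and 7 times in HRasG12V larvae and 0, 5 and 0 times in HRas control larvae. Its HRasG12V libraries lay above those of HRas control, but the fold change of 2.97 ± 1.08 (SE, n = 3 each) did not pass the test (edgeR adjusted p = 0.42). cxcl8a had 7 counts and tnfa 2, all in HRasG12V replicate 2, and cxcl8b.1 had 0 in all 6 libraries, where 3 counts per library is the limit that a count of 0 allows. These genes were too low to test. Of 8 genes tested in the list of cytokines, chemokines and receptors, 0 were called by edgeR or DESeq2. In the edgeR fit 3 were higher at an unadjusted p under 0.05, and the list's median was 0.56 (0.36 with 2 genes at their bound). Its abundant members, IL1RAPL1 (ENSDARG00000062045), tgfb1a and il10rb, had fold changes of −0.41, 1.39 and 0.48, and none passed the test.

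The remaining genes called higher belong to other groups. hsp70.3, an inducible heat shock chaperone, had 5.57, 5.17 and 25.9 CPM in HRasG12V larvae, against 1.04, 1.88 and 0.00 CPM in HRas control larvae. HRasG12V replicate 3 was the highest library, and the call was lost without it. The log2 fold change was 3.13 ± 0.62 (SE, n = 3 each; edgeR adjusted p = 0.00408). The similarly named heat shock genes hsp70.1 and hsp70l had fold changes of 0.90 and −1.09 (edgeR adjusted p = 0.89 and 0.91). Without HRas control replicate 2 these were 2.31 and 2.66 (edgeR adjusted p = 0.0937 and 0.102). hsp70l had 1.15, 1.35 and 20.2 CPM in HRasG12V larvae, against 0.809, 26.9 and 0.879 CPM in HRas control larvae. Neither gene passed the test in either fit, and reads could be split among such copies. HBE1 (ENSDARG00000087390), a globin gene of red blood cells, had 12.6, 11.2 and 6.74 CPM in HRasG12V larvae, against 1.04, 5.15 and 1.47 CPM in HRas control larvae, and rose by 2.12 ± 0.48 (SE, n = 3 each; edgeR adjusted p = 0.0212). It was not called without HRasG12V replicate 1, HRas control replicate 1 or macrophage HRas control replicate 3, and hsp70.3 had an adjusted p of 0.0548 without the last of these. DESeq2 called neither hsp70.3 (adjusted p = 0.0705) nor HBE1 (0.086), and HBE1 was not called without the replicate block (edgeR adjusted p = 0.153). A list of other erythroid genes held 11 that could be tested. Of these, 0 were called by edgeR or DESeq2, 4 were higher at an unadjusted p under 0.05 and 9 were higher in all 3 batches, with a median of 0.80. hbae3, an alpha globin, had a fold change of 0.97, the spectrin gene SPTB 0.47 and epb41b, of the red cell membrane skeleton, 0.41.

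The uncharacterised si:ch211-136m16.8 had 8.16, 9.77 and 8.80 CPM in HRasG12V larvae, against 3.70, 2.37 and 1.47 CPM in HRas control larvae, with a log2 fold change of 1.81 ± 0.41 (SE, n = 3 each; edgeR adjusted p = 0.0212). The call was lost in 5 of the 6 fits that left out 1 neutrophil library, all but that without HRas control replicate 1, with a highest adjusted p of 0.158. A 5_8S_rRNA gene (ENSDARG00000104115), whose symbol many near-identical copies share, had 60.8, 1.68 and 5.50 CPM, against 0.00, 0.00 and 2.34 CPM. Most of its signal sat in HRasG12V replicate 1, and the call was lost when it or HRas control replicate 1 was left out, so the fold change of 5.45 is uncertain.

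Of 29 cell cycle genes tested, 0 were called by edgeR and 3 by DESeq2, all 3 higher. In the edgeR fit 8 were higher at an unadjusted p under 0.05 (3.56% of all genes tested) and 27 had a fold change above 0 (51.7%). In all 3 batches 16 were higher (16.7%), and the median was 0.65. HMGB2, a chromatin protein of dividing cells, had 58.9, 72.5 and 45.9 CPM in HRasG12V larvae, against 32.0, 40.9 and 14.4 CPM in HRas control larvae (fold change 1.06, edgeR adjusted p = 0.25). The proliferation marker mki67 had 0.58 (adjusted p = 0.83), and STMN1 (ENSDARG00000033655), which is also a neuron gene, had −0.07 (adjusted p = 1.0).

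The largest group of genes that fell was from the retina. All 15 retina and neuron genes called lower were lower in all 3 batches, 11 of them by a log2 ratio of −1 or less each time, and all 15 remained called without HRas control replicate 2. 14 of them were also called by DESeq2, which gave no adjusted p for NXNL1, and 8 without macrophage HRas control replicate 3. In this last fit GRK7, cngb1b, PRPH2, GRIA1, NXNL1 and opn1sw2 had edgeR adjusted p of 0.0588 to 0.154. All but gnb3b, GNAT2 and GNGT2 also lost their call without HRasG12V replicate 1 and without HRas control replicate 1, with the largest shift for OPN1SW, whose log2 fold change was −1.05 without the HRas control library (adjusted p = 0.799).

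The cone transducin genes led this group. gnb3b, its beta subunit, had 4.32, 6.52 and 6.46 CPM in HRasG12V larvae, against 75.3, 14.9 and 31.4 CPM in HRas control larvae. GNAT2, the cone alpha subunit, had 5.28, 6.01 and 2.2 CPM, against 54.1, 12.3 and 17.9 CPM. GNGT2 (ENSDARG00000103543), the gamma subunit, had 5.09, 8.48 and 4.54 CPM, against 66.3, 16.8 and 25.5 CPM. In all 3 genes the HRasG12V libraries were low and alike, HRas control replicate 1 was the highest library, and HRas control replicate 2 was the lowest of its group yet above every HRasG12V library. They fell by 2.67 ± 0.42, 2.5 ± 0.40 and 2.4 ± 0.40 on the log2 scale (SE, n = 3 each; edgeR adjusted p = 0.000155, 0.000212 and 0.000423), and each stayed called whichever neutrophil library was left out.

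PDE6C, the cone cGMP phosphodiesterase, had 3.65, 4.21 and 3.85 CPM in HRasG12V larvae, against 47.2, 8.49 and 15.8 CPM in HRas control larvae. The same order of libraries returned, and the gene fell by 2.37 ± 0.42 (SE, n = 3 each; edgeR adjusted p = 0.00101). The cone opsins fell together. The red opsin opn1lw2 had 3.55, 4.27 and 3.30 CPM, against 24.4, 11.4 and 10.5 CPM, and the green opsin opn1mw1 0.768, 1.57 and 0.138 CPM, against 15.8, 3.76 and 6.15 CPM. The short-wavelength opsins OPN1SW and opn1sw2 had 1.82, 3.09 and 2.2 CPM and 0.384, 1.01 and 0.275 CPM in HRasG12V larvae, against 25.6, 4.98 and 5.27 CPM and 8.21, 2.61 and 3.52 CPM in HRas control larvae. No HRasG12V value reached a HRas control value in any of the 4 opsins, whose log2 fold changes were between −3.00 and −2.00 (edgeR adjusted p = 0.00242 for opn1lw2, 0.00268 for opn1mw1, 0.00741 for OPN1SW and 0.048 for opn1sw2).

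**Figure D3:**
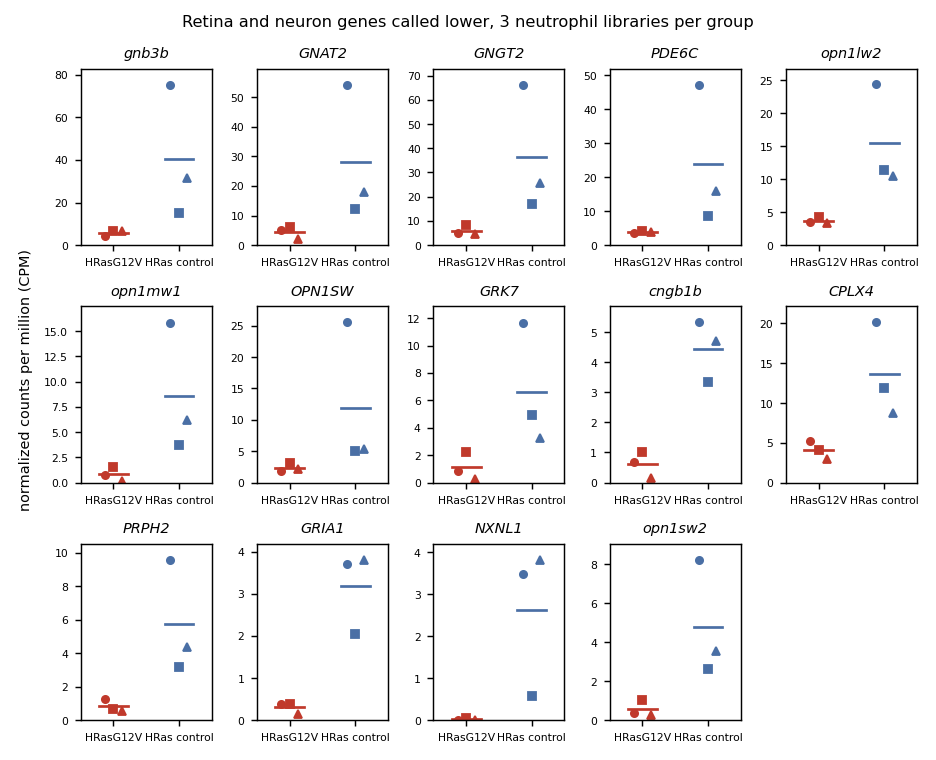
Normalized CPM of 14 of the 15 retina and neuron genes called lower in the 3 HRasG12V (left, red) and 3 HRas control (right, blue) neutrophil libraries, with circle, square and triangle for batches 1, 2 and 3 and a bar at the mean. The red points are low in every panel, and in all panels but GRIA1 and NXNL1 the batch 1 library is the highest of the blue points.

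GRK7 (ENSDARG00000020602), the cone opsin kinase, fell by 2.52 on the log2 scale, cngb1b, a subunit of the rod cyclic nucleotide gated channel, by 2.73, and PRPH2 (ENSDARG00000014840), which shapes the outer segment rim, by 2.67 (edgeR adjusted p = 0.0182 each). NXNL1, a thioredoxin-like gene of photoreceptors, had 0.00, 0.0562 and 0.00 CPM in HRasG12V larvae, against 3.47, 0.572 and 3.81 CPM in HRas control larvae. It was at least 9.04-fold lower with HRasG12V counted at a floor of 3 counts per library (edgeR adjusted p = 0.0333).

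Only 2 of the 15 came from the neuron list. CPLX4 (ENSDARG00000059978), a complexin of retinal ribbon synapses, had 5.18, 4.10 and 3.03 CPM in HRasG12V larvae, against 20.2, 11.8 and 8.79 CPM in HRas control larvae, and fell by 1.72 (edgeR adjusted p = 0.0182). GRIA1 (ENSDARG00000032714), an AMPA glutamate receptor subunit, fell by 3.22 (adjusted p = 0.0212), at 0.138 to 0.393 CPM in HRasG12V larvae and 2.04 to 3.81 CPM in HRas control larvae. The symbols GNGT2, GRK7, PRPH2, CPLX4 and GRIA1 are each shared by several genes in the table, so that reads could be split among their copies.

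Of 20 cone phototransduction genes tested, 9 fell (0.197% of all genes tested), 0 rose and all 20 had a fold change below 0 (7090 of 14685). Of the 20, 15 were lower in all 3 batches (13.7% of all genes tested). The median was −2.12, against 0.02 over all genes tested, and within batches 1, 2 and 3 it was −3.00, −0.97 and −2.07. The list summed to 64.4, 77.9 and 44.0 CPM in HRasG12V larvae, against 414, 130 and 172 CPM in HRas control larvae, so that the groups did not overlap and HRas control replicate 1 stood far above the others. Without HRas control replicate 2 the median was −2.62 and 12 genes were called, and without all libraries of batch 1 the median was −1.55. An abundant member, GNB3 (ENSDARG00000004358), was an exception at 19.3, 18.8 and 10.5 CPM in HRasG12V larvae, against 17.1, 19.4 and 15.2 CPM in HRas control larvae (fold change −0.11).

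Rod genes went less far. Of 22 rod phototransduction and outer segment genes tested, 4 fell, 19 had a fold change below 0 and 10 were lower in all 3 batches, with a median of −1.1 and sums of 67.3, 76.2 and 52.0 CPM in HRasG12V larvae against 137, 89.4 and 70.6 CPM in HRas control larvae. These sums overlapped between the groups. The most abundant members, the photoreceptor transcription factor genes crx and CRX (ENSDARG00000043483) and the arrestin saga, had fold changes of 0.17, −0.06 and −0.11. Of 33 neuron genes tested, 2 fell and 28 had a fold change below 0, with a median of −0.43. The pan-neuronal genes ELAVL4 and ELAVL3 had fold changes of 0.18 and 0.37, and neither passed the test.

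The cone genes were present in the other libraries of the series as well. Their sum was 73.3 to 89.9 CPM in keratinocyte libraries with HRasG12V and 105 to 186 CPM in those with HRas control. In macrophage libraries it was 75.7 to 147 CPM with HRasG12V and 0.00 to 101 CPM with HRas control. The neutrophil libraries of HRasG12V larvae, at 44.0 to 77.9 CPM, overlapped these ranges, and neutrophil HRas control replicate 1, at 414 CPM, lay above all of them. The median fold change of the cone list was −0.51 in keratinocyte and 0.34 in macrophage libraries. The amount of retina RNA carried into each immunoprecipitation was not tested.

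A few genes outside these groups were also lower in all 3 batches. krt15, a keratin of skin, had 6.52, 5.62 and 4.26 CPM in HRasG12V larvae, against 27.9, 7.68 and 14.7 CPM in HRas control larvae, and fell by 1.57 ± 0.37 (SE, n = 3 each; edgeR adjusted p = 0.0291). The margin was narrow in batch 2. It was the only one of 25 keratinocyte genes tested to change. The list's median was 0.15 and its sums overlapped, at 1808, 2353 and 1235 CPM in HRasG12V larvae and 2175, 1251 and 1366 CPM in HRas control larvae. The abundant keratins krt4, krt5 and cyt1l had fold changes of 0.50, −0.28 and −0.57 that did not pass the test.

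ppp1r18, a phosphatase regulatory subunit gene, fell by 1.70 (edgeR adjusted p = 0.0212), CIT (ENSDARG00000088825), which shares its symbol with other genes and encodes a citron kinase, by 2.54 (adjusted p = 0.0261), and ly6pge by 2.78 (adjusted p = 0.0445). ly6pge just missed the threshold without HRas control replicate 2 (adjusted p = 0.0502). krt15, ppp1r18, CIT and ly6pge were not called without HRas control replicate 1 or HRasG12V replicate 1, and the fold change of krt15 was then as small as −0.88 (adjusted p = 0.823 without the HRas control library). The uncharacterised si:dkeyp-3b12.9 had 0.384, 0.168 and 0.275 CPM in HRasG12V larvae, against 58.6, 0.572 and 336 CPM in HRas control larvae. It was almost silent in HRas control replicate 2 as in all HRasG12V libraries, and its fold change of −11.20 ± 1.72 (SE, n = 3 each; edgeR adjusted p = 0.000148) rested on HRas control replicates 1 and 3. In keratinocyte libraries it reached 794 CPM in 1 HRasG12V library and was at or below 0.641 CPM with HRas control.

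HRas control replicate 2 decided a separate group of calls. In 8 of the 29 genes called lower, this library held 87.3 to 100% of the level summed over the 3 HRas control libraries, and the call was lost without it. They were EEF1A1 (ENSDARG00000069951 and ENSDARG00000039502), hsc70, hspa1b, HSPA8 (ENSDARG00000037403), rn7sk, tuba8l2 and RHOG (ENSDARG00000068653). These encode translation elongation factor 1 alpha, cytosolic chaperones of the HSP70 family, the 7SK RNA that holds the elongation factor P-TEFb, an alpha tubulin and a small GTPase. None of them is a marker of leukocytes.

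EEF1A1 (ENSDARG00000069951) had 0.288, 0.73 and 0.138 CPM in HRasG12V larvae, against 2.89, 384 and 4.10 CPM in HRas control larvae. All 3 HRas control libraries were above the HRasG12V libraries, but replicate 2 was far above the rest. The log2 fold change was −7.41 with all libraries (edgeR adjusted p = 2.15e-07) and −3.16 without HRas control replicate 2 (adjusted p = 0.0876). The copy ENSDARG00000039502 had 4.80, 5.45 and 7.43 CPM, against 10.4, 359 and 5.57 CPM, with fold changes of −3.77 with that library and −0.40 without it (adjusted p = 0.883).

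hsc70 had 1.15, 0.393 and 0.138 CPM in HRasG12V larvae, against 1.39, 62.6 and 1.76 CPM in HRas control larvae, and HSPA8 (ENSDARG00000037403) had 1.63, 1.24 and 1.38 CPM, against 1.04, 66.6 and 3.52 CPM. hspa1b had 0.288, 0.674 and 0.00 CPM, against 1.39, 27.8 and 2.64 CPM. Apart from HRas control replicate 2, the libraries of the groups were within a few CPM of each other. The fold changes of hsc70, HSPA8 and hspa1b were −4.45, −3.54 and −4.51 with this library and −1.70, −0.47 and −2.49 without it (edgeR adjusted p = 0.552, 0.926 and 0.56).

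rn7sk had 27.3, 23.3 and 14.0 CPM in HRasG12V larvae, against 20.2, 1353 and 22.9 CPM in HRas control larvae, and its fold change of −4.01 became 0.09 without HRas control replicate 2. tuba8l2 had 9.79, 8.37 and 7.70 CPM, against 14.6, 177 and 2.93 CPM, and its fold change of −2.15 became −0.21. RHOG (ENSDARG00000068653) had 0 counts in 5 neutrophil libraries and 313 in HRas control replicate 2, and was at least 29.4-fold lower in HRasG12V larvae only through that library. EEF1A1, HSPA8 and RHOG share their symbols with other genes of the table.

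Leaving out HRas control replicate 2 removed 14 of the 42 calls and kept 28, of which 9 were higher and 19 lower. Besides the 8 genes above, the 6 lost were NCF1, fcer1gl, lgals9l1, si:ch211-136m16.8, ly6pge and ENO1 (ENSDARG00000013750), in which that library held less than 80% of the HRas control level. ENO1, the glycolytic enzyme enolase, had 1.15, 1.18 and 1.51 CPM in HRasG12V larvae, against 9.48, 16.7 and 0.293 CPM in HRas control larvae, and its ratio was above 0 in batch 3. Over all genes tested, 358 had at least 80% of their HRas control level in replicate 2, against 195 in replicate 1 and 84 in replicate 3, and 55, 98 and 27 had so much of their HRasG12V level in HRasG12V replicates 1, 2 and 3.

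The 28 genes kept comprised all 15 retina and neuron genes, 4 leukocyte genes (MYO1F, LCP1, lyz and PTPN6), SBNO2, txnb, hsp70.3, HBE1, krt15, 5_8S_rRNA and 3 genes of no group. When macrophage HRas control replicate 3 was left out as an alternative of its own, 15 of these 28 were also called, 5 higher and 10 lower. 5 genes passed whichever of the 6 neutrophil libraries was left out, namely MYO1F, gnb3b, GNAT2, GNGT2 (ENSDARG00000103543) and si:dkeyp-3b12.9.

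**Figure D4:**
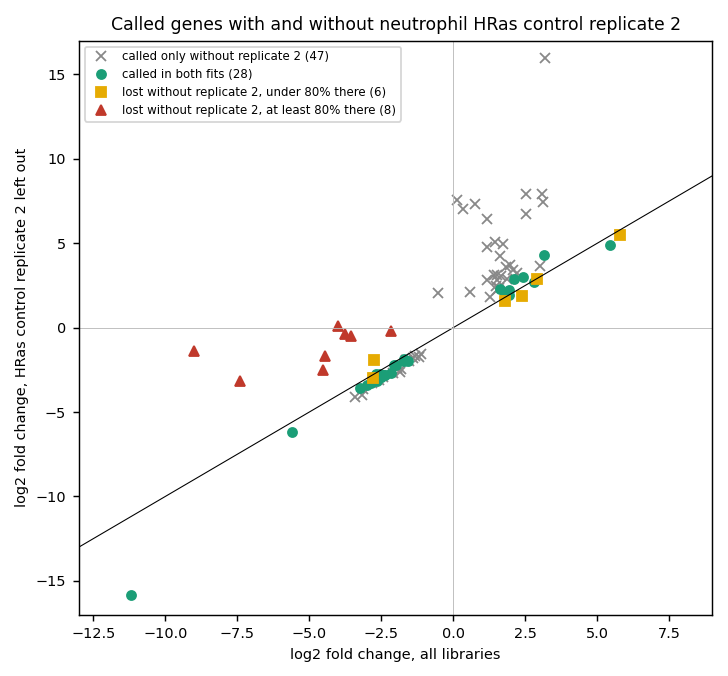
Log2 fold change of HRasG12V over HRas control in neutrophils with all libraries (x axis) and with HRas control replicate 2 left out (y axis), with the line of equality, for genes called in either fit. Most of the 28 genes called in both fits (circles) lie near the line. An exception is si:dkeyp-3b12.9, at −11.2 with all libraries and −15.9 without replicate 2. The 8 genes that rested on replicate 2 (triangles) lie above the line nearer to 0, and the 6 others lost are squares. The 47 gained (crosses) lie mostly above the line among the higher genes.

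Without HRas control replicate 2, 75 genes were called, 39 higher (0.249% of the 15670 tested) and 36 lower (0.23%). Of these, 47 were not called with all libraries, 30 higher and 17 lower. The leukocyte genes PLEK and ARPC1B were among the 10 gained higher genes with the smallest adjusted p. PLEK, the protein kinase C substrate pleckstrin, had 4.41, 2.53 and 2.61 CPM in HRasG12V larvae, against 0.00, 1.06 and 0.00 CPM in HRas control larvae (edgeR adjusted p = 0.0025 without the library, 0.074 with it). ARPC1B, a subunit of the Arp2/3 complex that branches actin, had 4.70, 4.21 and 2.75 CPM, against 0.694, 3.84 and 0.00 CPM (adjusted p = 0.015 and 0.26). HRas control replicate 2 overlapped the HRasG12V libraries in ARPC1B and lay below them in PLEK.

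The same 10 genes included transcripts of red blood cells and muscle. alas2, the enzyme that starts haem synthesis in erythroid cells, had 3.93, 4.61 and 1.38 CPM in HRasG12V larvae, against 0.116, 3.02 and 0.00 CPM in HRas control larvae, and the globin hbae1.3 had 4.03, 4.27 and 1.79 CPM, against 0.00, 1.55 and 0.00 CPM. The cardiac actin actc1a had 4.80, 3.09 and 0.963 CPM, against 0.00, 9.96 and 0.00 CPM, so that it was highest in the library left out. UBB (ENSDARG00000002369), a ubiquitin gene with a shared symbol, had 9.88, 11 and 13.1 CPM, against 2.89, 59 and 2.64 CPM, and its fold change was −0.53 with all libraries and 2.03 without HRas control replicate 2. The other 4 were ENSDARG00000102530, ENSDARG00000087854, ENSDARG00000094744 and zgc:110216. ENSDARG00000102530 had 326, 1.01 and 98.7 CPM in HRasG12V larvae, against 0.00, 132 and 0.00 CPM in HRas control larvae, and so was present or almost absent in opposite groups from batch to batch.

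Among the gained lower genes, retina genes returned. RCVRN (ENSDARG00000009637), the photoreceptor calcium sensor recoverin, had 2.02, 3.43 and 1.38 CPM in HRasG12V larvae, against 16.4, 2.53 and 9.08 CPM in HRas control larvae, and the opsin kinase grk1b had 0.672, 1.80 and 0.413 CPM, against 10.1, 2.53 and 6.74 CPM. rp1l1b, a gene of the photoreceptor axoneme, had 0.192, 0.674 and 0.00 CPM, against 8.67, 0.653 and 2.34 CPM. In RCVRN and rp1l1b, HRas control replicate 2 lay within the range of the HRasG12V libraries, and in grk1b just above it. Their fold changes without it were −2.44, −2.95 and −3.98 for RCVRN, grk1b and rp1l1b (edgeR adjusted p = 0.0024, 0.015 and 0.0028). The synaptic vesicle gene sypb and OTOF (ENSDARG00000020581), the calcium sensor of ribbon synapses, had −1.93 and −2.69 (adjusted p = 0.025 and 0.0028). Also among these 10 were sptbn5, zgc:194398, si:dkey-183i3.5 and ENSDARG00000089665, with fold changes of −2.39 to −1.58.

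Lists of further tissues served to follow RNA of other cells. Of 36 skeletal muscle genes tested, 0 were called by edgeR and 1 by DESeq2, with 8 higher and 1 lower at an unadjusted p under 0.05 and a median of 0.35. Of 13 lens genes, 0 were called by either tool, 12 had a fold change above 0 and the median was 0.66, with 3 higher at an unadjusted p under 0.05. Of 16 liver and gut genes, 0 were called by either tool, 2 were higher at an unadjusted p under 0.05 and the median was 0.42. For 12 endothelial genes and 7 cardiac muscle genes, 0 were called by either tool, 0 and 1 passed an unadjusted p of 0.05, and the medians were 0.35 and −0.10. Of 19 heat shock genes, hsp70.3 rose, hsc70 and HSPA8 (ENSDARG00000037403) fell through HRas control replicate 2, and the median was 0.02. The abundant members HSP90AB1, HSPA8 (ENSDARG00000068992) and cirbpb had fold changes of 0.02, 0.07 and 0.84 that did not pass the test.

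**Figure D5:**
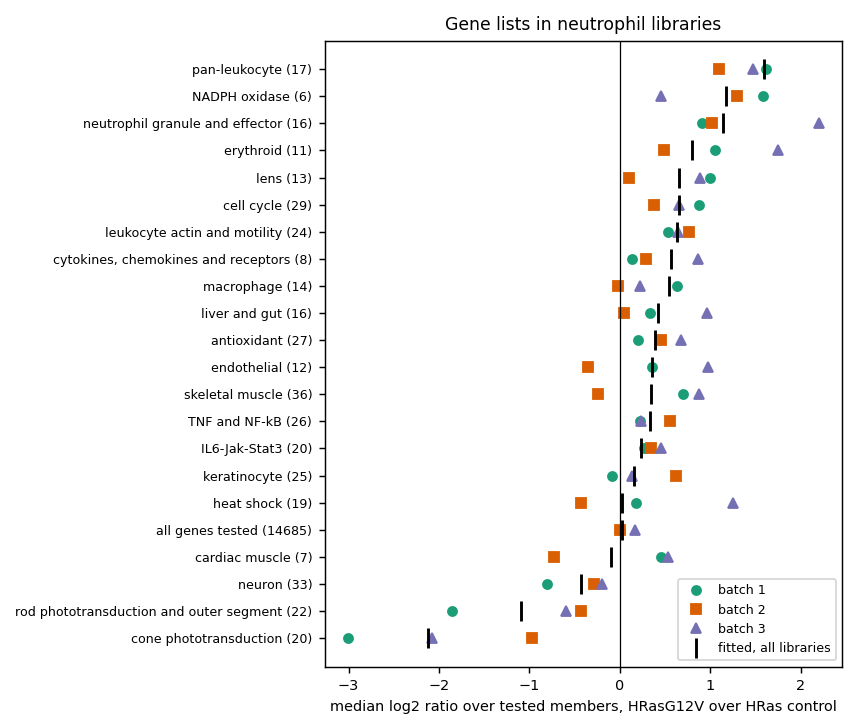
Median log2 ratio of HRasG12V over HRas control in neutrophil libraries for 21 gene lists and all 14685 genes tested, with the number of members tested in brackets, within batches 1 (circle), 2 (square) and 3 (triangle) and as fitted over all libraries (bar). The pan-leukocyte, NADPH oxidase and neutrophil granule lists lie right of 0 in all 3 batches and the cone, rod and neuron lists left of it. Lists such as erythroid, lens, liver and gut, and cell cycle also lie right of 0 in all 3 batches. Lists such as skeletal muscle, endothelial, heat shock and cardiac muscle change side between batches.

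Of the 21 list medians, 16 kept their sign under all 21 alternatives. These included the leukocyte lists, with ranges of 0.85 to 1.95 for pan-leukocyte, 0.86 to 1.63 for neutrophil granule and effector and 0.72 to 1.99 for NADPH oxidase genes, and the cone list, with −2.62 to −1.55. They also included lists of other tissues and of dividing cells, with ranges of 0.46 to 1.2 for erythroid, 0.50 to 1.25 for cell cycle, 0.12 to 1.0 for lens, 0.28 to 0.84 for liver and gut and 0.10 to 0.69 for skeletal muscle genes, so that keeping the sign was not particular to the leukocyte lists. The rod list ranged between −1.45 and −0.07 and the neuron list between −0.61 and −0.03. Medians of the macrophage, keratinocyte, endothelial, heat shock and cardiac muscle lists changed sign in at least 1 alternative.

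The effect in neutrophils was compared with that in the 2 other cell types by the difference of the fold changes in the same model. It differed from the keratinocyte effect in 10 genes (0.0681%) and from the macrophage effect in 13 (0.0885%), of which 5 and 10 were also called in neutrophils. txnb, at the levels given above, rose in keratinocytes too, by 2.45 (edgeR adjusted p = 0.00029), and the difference, neutrophil minus keratinocyte, was −0.53 ± 0.60 (SE; adjusted p = 1.0), which does not show the effects to be alike. For lyz the difference from keratinocytes was −0.20 ± 0.83 and from macrophages 0.86 ± 0.74 (adjusted p = 1.0 each). None of the 7 leukocyte genes passed a test of either difference, nor did SBNO2.

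The cone genes GNAT2, gnb3b, OPN1SW, opn1lw2 and PDE6C differed between neutrophils and macrophages, by −3.59, −3.56, −3.32, −2.66 and −2.74 on the log2 scale (edgeR adjusted p between 0.00122 and 0.0337). gnb3b was at 7.58 to 21.1 CPM in macrophage libraries with HRasG12V and at 0.00 to 8.79 CPM (median 7.82 CPM) in those with HRas control. None of these 5 genes differed in the same test from keratinocytes, with adjusted p from 0.294 for gnb3b to 1.0 for opn1lw2. The tests against macrophages rest in part on macrophage HRas control replicate 3, and without it 2 genes differed from each of the other cell types.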

How the data were processed

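TRAP libraries were sequenced as single-end reads after NuGEN Ovation Single Cell amplification. The authors aligned reads to GRCz10 with Bowtie 1.1.1 and quantified genes with RSEM 1.2.20. The deposited expected counts are RSEM's estimates per gene, unnormalized and not whole because reads are divided among genes. The TPM values deposited with them are scaled for library size and transcript length. FPKM columns were not used here.

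Expected counts of 31953 genes were rounded. edgeR 4.0.16 in R 4.3.3 was used with filterByExpr (14685 genes kept), TMM factors and 1 quasi-likelihood model of all 18 libraries, with 6 groups and the batch as a block, as in the study's design. Contrasts were HRasG12V against HRas control in neutrophils and the differences of this effect from the keratinocyte and macrophage effects. P-values were adjusted after Benjamini-Hochberg across the whole table, and genes at 0.05 or less were called. Fold changes have a prior count of 0.125, and batch ratios of CPM use a prior count of 2. With 3 libraries per group, the spread between libraries limits precision, and SE is given. Bounds against a count of 0 use 3 counts per library and cover counting error only.

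The labels give each library a batch equal to its replicate number, and this pairs the samples. In neutrophils, deviations from the group means of same-numbered libraries correlated with r = 0.0527, 0.0963 and 0.3275 in batches 1, 2 and 3 over 4354 genes, which are not independent replicates.

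Named are lyz and txnb, all genes past the threshold, the 3 most abundant members of each list and any member past the threshold, the qPCR cytokines, and, among genes called only without HRas control replicate 2, the 10 most significant in each direction. A few genes that this rule names are not reported here. Lens, muscle, liver and gut, and endothelial lists are given by counts only. A called gene rested on a library if that library held at least 80% of its group's level and the call was lost without it. Members and lists were chosen with earlier results of these data known, and genes outside the lists were grouped by known role. Of 521 list symbols, 491 matched. Symbols in capitals are those of the gene table provided.

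On simulated data of this comparison with 14685 genes, 87 of 100 genes changed 4-fold and 96 of 100 changed 8-fold were recovered, with 12 false calls. The changed genes were drawn from the more abundant ones only. Apart from these changes, each gene had the same mean level in all libraries, without effects of cell type or batch. Recovery of genes at a few counts, and calls that rest on 1 library, were therefore not tested by this simulation. Alternatives were other scaling, no filter, genes averaging 50 or more counts, DESeq2 1.42.0 (prior on or off), no replicate block, the 6 neutrophil libraries alone, unrounded counts, leaving out the 10 most abundant features, macrophage HRas control replicate 3, a batch or 1 neutrophil library, and a prior count of 2.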

Additional observations from a re-analysis of the deposited data

Results flagged for a closer look

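The HRasG12V effect on the log2 scale in neutrophils differed from that in keratinocytes in 10 genes and from that in macrophages in 13. These calls are by edgeR's test of the difference with Benjamini-Hochberg adjustment over 14685 genes. Only some of these genes are listed here. Relative to keratinocytes, the neutrophil effect was lower for si:dkeyp-3b12.9 by a difference of −18.84, for hsc70 by −5.90, for EEF1A1 (ENSDARG00000069951) by −7.07, for hspa1b by −6.97 and for tpm4a, a tropomyosin, by −3.08, and it was higher for 5_8S_rRNA (ENSDARG00000104115) by 6.62. In hsc70, EEF1A1 and hspa1b the neutrophil effect rested on HRas control replicate 2. tpm4a had 13.8, 9.55 and 10.3 CPM in HRasG12V neutrophil libraries, against 6.24, 51.3 and 12.9 CPM in HRas control libraries, so that the same library was the highest.

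Relative to macrophages, the difference was −3.59 for GNAT2, −3.56 for gnb3b, −3.32 for OPN1SW, −2.66 for opn1lw2, −2.74 for PDE6C and −6.06 for rp1l1b, all of them photoreceptor genes. It was −7.70 for EEF1A1 (ENSDARG00000069951), −6.22 for hsc70, −10.52 for RHOG (ENSDARG00000068653) and −5.21 for HSPA8 (ENSDARG00000037403), which rested on HRas control replicate 2 in neutrophils, and 8.63 for 5_8S_rRNA (ENSDARG00000104115). Without macrophage HRas control replicate 3, 2 genes differed from keratinocytes and 2 from macrophages.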

How the results depend on the processing

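With all 18 libraries 42 genes were called, 13 higher and 29 lower. Scaling by library size only gave 7 genes (2 higher, 5 lower) and put the median log2 fold change of all genes at 0.488, against 0.021 with TMM. No filter on low counts gave 84 (25 and 59), a mean of at least 50 counts 29 (10 and 19), DESeq2 79 (22 and 57) and DESeq2 with a prior 79 (21 and 58). Without the replicate block, that is with the pairing by batch ignored, 37 genes were called, 6 higher and 31 lower, of which 34 were among the 42, and lyz, txnb, LCP1, PTPN6, fcer1gl, lgals9l1 and HBE1 were among the 8 not called (adjusted p = 0.0594 to 0.179). The 6 neutrophil libraries alone gave 1 gene (0 higher, 1 lower), in a fit with fewer libraries and 12073 genes. Without macrophage HRas control replicate 3 there were 24 (8 and 16). Without batch 1, 2 or 3 there were 24, 91 and 24 genes, 2, 50 and 5 of them higher and 19 of them lower without batch 3. Leaving out 1 neutrophil library gave 16 to 75 genes, 3 to 39 higher and 13 to 50 lower, with the fewest in each case without HRasG12V replicate 1. The most were called without HRas control replicate 2 (75, and 39 higher) and without HRas control replicate 3 (50 lower). Genes whose effect differed from that in keratinocytes fell to 2 without macrophage HRas control replicate 3, against 10 with it. Those that differed from macrophages numbered 2 without it and 7 without the replicate block, against 13. Except where named, the cause of these differences was not tested.

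Among genes called, the sign changed in 2 only, in rn7sk and, without batch 2, in tuba8l2 (0.026). Among genes that did not pass the test, library size only turned ikbkg to 0.152, GPX4 to 0.069, STMN1 to 0.348, GNB3 to 0.387, IL1RAPL1 to 0.153, krt5 to 0.15, saga to 0.36 and CRX to 0.511. Without batch 1 the values were 0.03 for STMN1, −0.037 for HSP90AB1, 0.361 for krt5, 0.204 for saga, −5.02 for ENSDARG00000102530 and −1.09 for actc1a. Without batch 2 they were 0.363 for tpm4a, 0.108 for STMN1, 0.022 for CRX and 2.07 for UBB, and without batch 3 0.08 for GNB3, −0.045 for il10rb, −0.16 for HSP90AB1, −0.057 for HSPA8 (ENSDARG00000068992), −0.009 for ELAVL4 and 0.24 for CRX. HSP90AB1 had −0.004 and actc1a −0.013 in DESeq2 with a prior, −0.03 and −0.319 without the replicate block, and in the 6 neutrophil libraries alone HSP90AB1 had −0.003 and UBB 0.29. With 1 neutrophil library left out, values spanned −4.91 to 0.092 for rn7sk, −0.696 to 0.168 for ikbkg, −1.11 to 0.03 for fth1a, −1.60 to 0.337 for tpm4a, −0.379 to 0.104 for STMN1, −0.227 to 0.047 for GNB3, −0.169 to 0.228 for HSP90AB1, −0.118 to 0.176 for HSPA8, −0.648 to 0.348 for krt5, −0.037 to 0.368 for actb2, −0.144 to 0.366 for ELAVL4, −0.069 to 0.347 for crx, −0.398 to 0.139 for saga, −0.355 to 0.151 for CRX, −4.83 to 16.0 for ENSDARG00000102530, −0.735 to 7.58 for actc1a and −1.23 to 2.03 for UBB. Genes at a few counts per library, such as lgals9l1, fcer1gl and the cytokines, are limited by depth.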

Other observations

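Other receptors and adaptors of leukocytes gave values on the same side without passing the test. The lymphocyte and myeloid phosphatase ptprc (CD45) had a log2 fold change of 0.97, the inositol phosphatase INPP5D 1.43 and the integrin subunit itgb2 0.67 (edgeR's quasi-likelihood test with Benjamini-Hochberg adjustment, adjusted p = 0.84, 0.38 and 0.96). These genes were chosen from the pan-leukocyte list after their values were seen.

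Among antioxidant genes, the glutathione transferase gstp1.2 had a fold change of 1.44 (adjusted p = 0.12) and the haem oxygenase HMOX1 2.43 (adjusted p = 0.59), while the superoxide dismutases SOD1 and SOD2 had 0.14 and −0.44 (adjusted p = 0.99 and 0.97). These genes were chosen in the same way.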
